A study of Mus musculus with 6 samples.

Results

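The ligands, receptors and antagonists of Wnt signalling were followed through 82 probe sets, sets of oligonucleotides that together report the level of a transcript, on 3 mouse expression chips. They were all probe sets whose only annotated symbol began with Wnt, Fzd, Dvl, Sfrp or Dkk and a digit, or was Lrp5, Lrp6, Ctnnb1, Axin1 or Axin2. Of the 36701 probe sets of the 3 chips, 43 on U74Av2, 15 on U74Bv2 and 24 on U74Cv2 met this rule, and they stand for 42 of 15964 named genes. The symbol Fzd10os also met it. It is a gene on the strand opposite Fzd10 and not a receptor. It was given a class of its own but is counted among the 42 genes and in the member counts and medians below.

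Total RNA labelled as from spermatogonia, the dividing cells from which sperm arise, was compared between wild-type mice (WT) and mice labelled Zfp145 knock out (Null). Zfp145, today Zbtb16 or PLZF, encodes a zinc finger repressor of the BTB family that spermatogonial stem cells need for self-renewal. All mice were 1 week old and of a mixed background, written 129sv/c57Bl6 on U74Av2, 129sv-C57Bl/6 on U74Bv2 and 129sv-C57BVl-6 on U74Cv2. The labels do not give the exons removed, the number of animals, their sex, how the cells were isolated, or whether 1 RNA extract served the 3 chips of a genotype. Each genotype had 1 array per chip, so nothing was replicated, no test could be run, and the small number of arrays limits the precision.

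Wnt proteins are secreted, lipid-modified ligands. They bind Frizzled receptors and, in the canonical branch, the co-receptors Lrp5 and Lrp6, which act through Dishevelled to inactivate a complex built on Axin that otherwise marks beta-catenin for degradation. Stabilised beta-catenin then enters the nucleus and acts with TCF and LEF factors. Sfrp proteins bind Wnt ligands outside the cell, and the Dkk proteins Dkk1 and Dkk2 bind the Lrp co-receptors. In the gonad Wnt4 and beta-catenin are known for their part in ovarian determination, and Wnt signals from somatic cells are known to act on spermatogonia.

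Values are intensities as deposited, on a linear scale. Differences are log2 of Null over WT after the Null array was scaled to the WT array of the same chip. A floor at the 40th percentile of each chip (98.3 for U74Av2, 165 for U74Bv2 and 124 for U74Cv2) stands for the limit below which signal was not read. A probe set under the floor on both arrays was given no fold, and one under it on a single array only a bound. The spread quoted beside a log2 ratio is a robust SD that describes how far probe sets for 1 gene differ within a chip at a like level. It holds measurement error and transcript variants but nothing of the variation between animals. From dim to bright probe sets it was 0.32, 0.21 and 0.15 for U74Av2, then 0.36, 0.28 and 0.24 for U74Bv2, and finally 0.54, 0.42 and 0.26 for U74Cv2.

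The targeted gene Zbtb16 read 770.2 in WT and 158.1 in Null in a U74Av2 probe set and 1156.8 and 510.8 in a U74Cv2 probe set, and another on U74Av2 lay under the floor on both arrays. Germ cell markers were present, with 11 of 12 listed genes on the chips above the floor in WT or Null, and so were somatic ones: 12 of 12 Sertoli, 7 of 7 fibroblast and matrix, 5 of 5 macrophage, 2 of 2 erythroid, 5 of 6 endothelial, 4 of 6 peritubular and 5 of 7 Leydig markers. The arrays thus read somatic as well as germ cell transcripts. A change in the number of cells of a type and a change in RNA per cell cannot be told apart in such bulk samples.

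Few members of the pathway were 2-fold different between the genotypes, and those that differed went both ways. With each gene represented on a chip by its brightest probe set, 1 of 22 member genes above the floor on U74Av2 was at least 2-fold different. On U74Bv2 it was 0 of 10 and on U74Cv2 1 of 13. Over all genes the shares at least 2-fold different were 0.821% for U74Av2, 1.6% for U74Bv2 and 9.59% for U74Cv2. A single gene past 2-fold on a chip is too few to set against these shares. The 2 genes were Wnt1, 2.07-fold lower in Null on U74Av2, and Wnt4, 2.16-fold higher in Null on U74Cv2. With bounds included, the members had a median log2 ratio of -0.0037 on U74Av2, beside -0.0093 over all genes. The medians were 0.06 and -0.0080 on U74Bv2, and 0.07 and -0.0073 on U74Cv2. The sizes of the differences, without regard to sign and over genes above the floor on both arrays, had a median of 0.31 for 16 members against 0.18 over all genes on U74Av2. They were 0.13 for 10 members against 0.21 on U74Bv2, and 0.42 for 12 members against 0.27 on U74Cv2. With genes at a bound included, the 22, 10 and 13 members were also dimmer. Their median level percentiles were 52.5, 66.7 and 68.3 on the 3 chips beside 71.3, 72.2 and 71.8 over all genes. Genes at a bound are dim, so these percentiles do not describe the smaller set above the floor on both arrays. The part of level in the sizes was not tested. The ratio was within 1 spread for 7 of 16, 7 of 10 and 6 of 12 members, beside 56%, 63.8% and 62.2% of all genes. It was over 2 spreads for Axin1, Dkk3 and Wnt1 on U74Av2, Sfrp1 on U74Bv2, and Wnt2 and Wnt4 on U74Cv2, that is 3, 1 and 2 members, beside 14.7%, 8.24% and 10.8% of all genes.

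**Figure D1:**
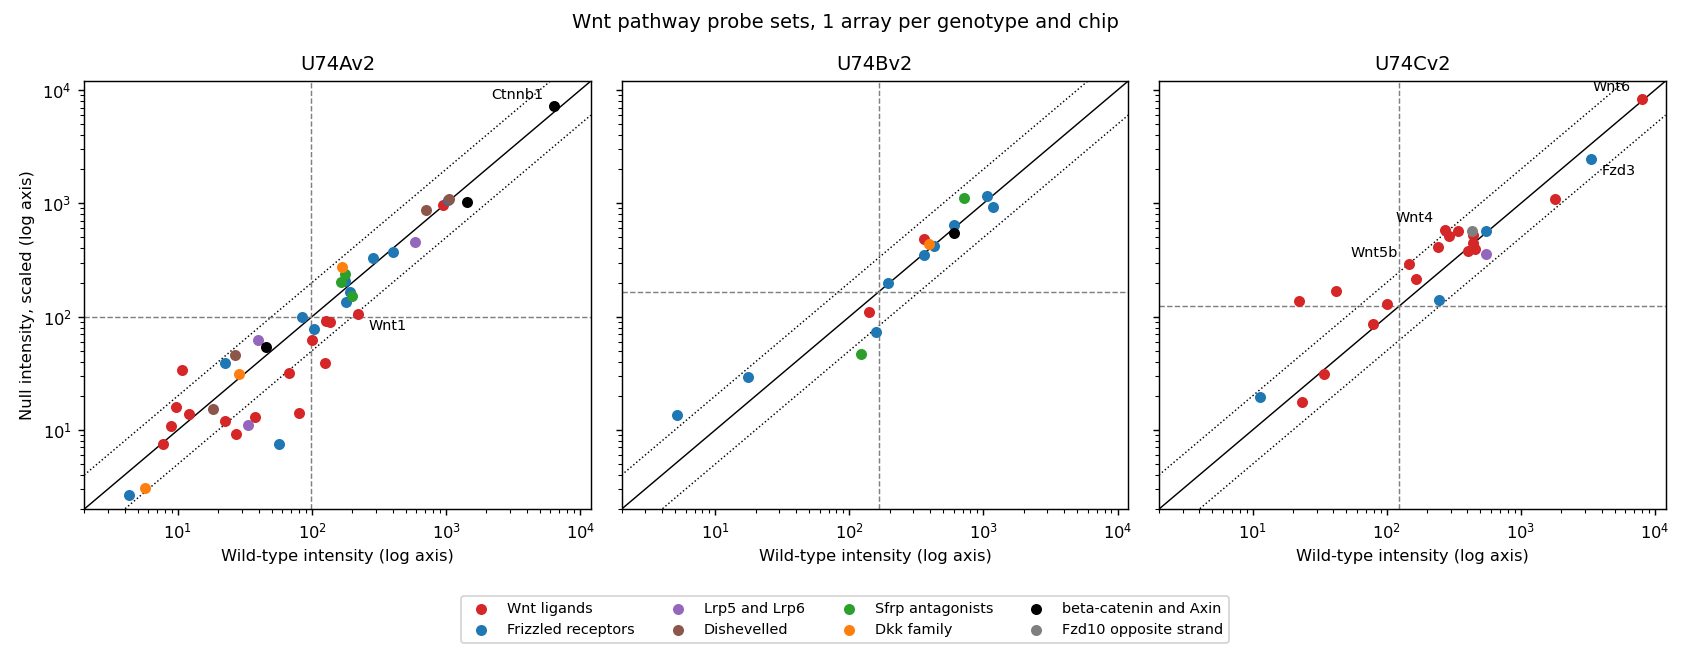
Intensity of each of the 82 member probe sets in the WT array (horizontal, log axis) and in the scaled Null array (vertical, log axis) on each chip, coloured by class. The solid line marks equal signal, dotted lines mark 2-fold and dashed lines the floor; above the floor most points lie between the dotted lines, with Wnt1 below the band and Wnt4 and a probe set of Wnt5b above it.

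A threshold of 1.5-fold was passed by 2 of 22 members on U74Av2 (9.09%). On U74Bv2 1 of 10 passed it (10%), and on U74Cv2 5 of 13 (38.5%). The shares over all genes were 6.92%, 10.2% and 24.8%. On U74Av2 these were Dkk3 on the higher side and Wnt1 on the lower. On U74Bv2 it was Sfrp1, higher in Null. On U74Cv2 Wnt4 and Wnt9b were higher, and Fzd8, Wnt2 and Lrp6 lower. Taking 1 probe set per gene over all chips, 34 of 42 genes exceeded the floor in WT or Null. Of the 30 above it on both arrays, 19 had a ratio above 0 and 11 below 0, with a median of 0.07. Without U74Cv2, the chip with the widest spread, there were 22 such genes, 14 above 0 and 8 below 0, with a median of 0.04.

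**Figure D2:**
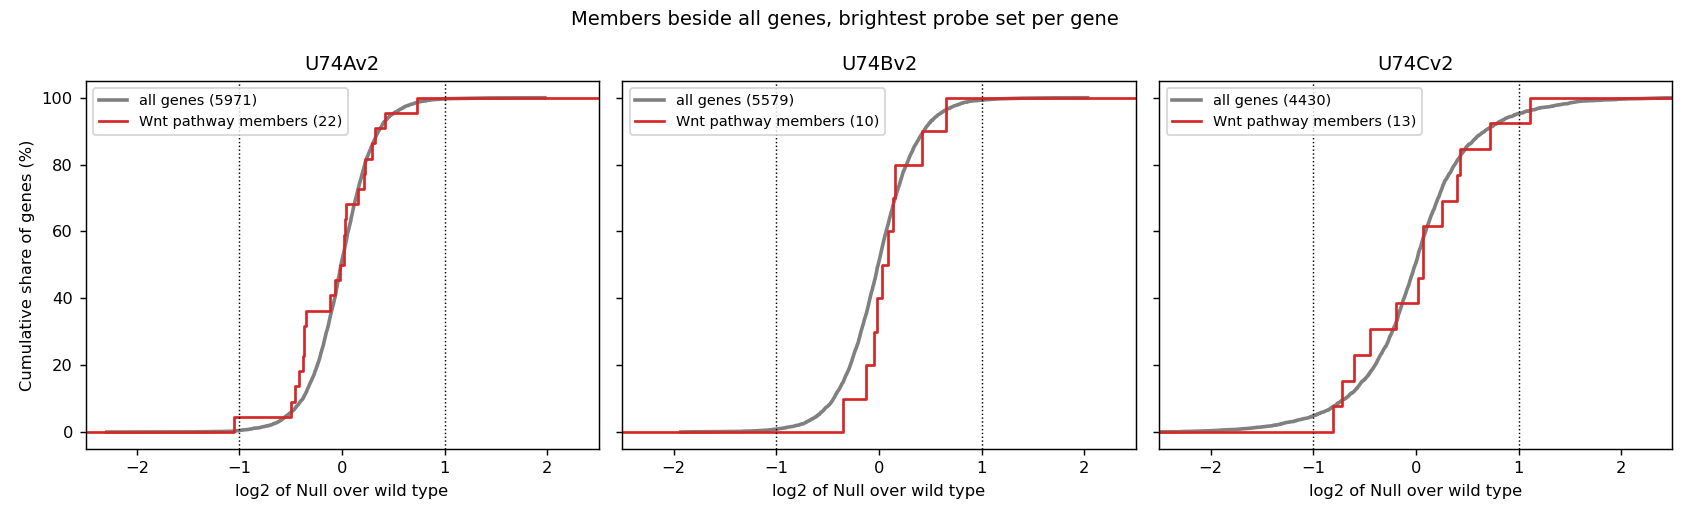
Cumulative share of genes (vertical, %) by log2 of Null over WT (horizontal) on each chip, for all genes above the floor (grey) and for the members (red), 1 probe set per gene. The curves of 22, 10 and 13 members have medians between -0.0037 and 0.07, and on U74Cv2 5 of the 13 members lie past 1.5-fold; dotted lines mark 2-fold.

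The Wnt ligands were the class with the most genes on the chips, 16 genes in 36 probe sets. Of these 13 were above the floor somewhere. By their brightest probe set 9 were above it on both arrays, 6 with a ratio above 0 and 3 below 0. The genes Wnt2b, Wnt8a and Wnt11 lay under it on both arrays in their only probe set. The ligand with the highest level percentile on its chip was Wnt6, a ligand of epithelia, and its genotypes read alike. It read 942.7 in WT and 963.1 in Null on U74Av2, and 7983 and 8523.6 on U74Cv2. The log2 ratios of 0.02 and 0.07 lay well inside the spreads of 0.15 and 0.26. The name of the U74Cv2 probe set carries a suffix, which can mark a design that shares probes between transcripts or departs from the usual rules. So do 18 of the 24 member probe sets on that chip, those of Wnt2, Fzd3 and Fzd8 among them, and 8 of the 43 on U74Av2.

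Wnt4 gave the largest difference upward at the floor used here. Its U74Cv2 probe set read 271.9 in WT and 595.9 in Null, a log2 ratio of 1.11 against a spread of 0.54. This probe set too has a name with a suffix. The other Wnt4 probe set, on U74Av2, read 12 in WT and 13.8 in Null, far under the floor, so it gives no second measurement. With the floor at the 60th percentile the Wnt4 ratio was a bound of 0.93 and no longer 2-fold.

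Wnt1, a ligand of midbrain development, gave the largest difference downward at the floor used here. It read 219 in WT and 106.4 in Null on U74Av2, a log2 ratio of -1.05 against a spread of 0.32, and no other chip carried it. The Null value lies just above the floor of 98.3. The ratio was -0.98 after quantile normalization and -0.98 after loess, both short of 2-fold. With the floor at the 20th percentile or none, Wnt3 on U74Av2 stood further down, at -1.68. With no floor Wnt7b on that chip, at 80.6 in WT and 14.3 in Null, also stood further down than Wnt1.

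Wnt5b, a ligand of the branch that does not use beta-catenin, was read by the most probe sets of any member, and they did not give the same answer. On U74Av2 it read 126.7 in WT and 91.7 in Null, under the floor in Null, a bound of -0.37. On U74Cv2 the brightest of 5 probe sets read 438.2 and 450.7, a log2 ratio of 0.02. The 4 dimmer ones on that chip stood at 1.01, 0.75, 0.38 and a bound of 0.13, all higher in Null. All 5 names carry a suffix, and the probe set at 1.01 read 145.3 in WT and 297.4 in Null.

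Wnt5a, the best-known ligand of that branch, lay under the floor on U74Av2. On U74Cv2 it read 439.8 in WT and 531.8 in Null in the brightest probe set, 401.8 and 385.9 in another and 288.9 and 519.3 in the third. These give log2 ratios of 0.25, -0.08 and 0.82, a range wider than the spread of 0.54 at low level on this chip. Wnt10b likewise had 3 probe sets under the floor on U74Av2, and on U74Cv2 it stood at -0.19 in one and at a bound of 0.07 in the other.

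Wnt9b, a ligand of kidney and urogenital development, and Wnt2 went opposite ways on U74Cv2. Wnt9b read 342.7 in WT and 576.4 in Null, a log2 ratio of 0.73, while its 2 other probe sets were under the floor. Wnt2 read 1806.3 and 1111.6, a ratio of -0.72 against a spread of 0.26, in a probe set whose name has a suffix. Its U74Bv2 probe set lay under the floor on both arrays at 140.6 and 110.

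Wnt7b read 359.8 in WT and 481.9 in Null on U74Bv2, a log2 ratio of 0.42. It was under the floor on U74Av2, at 80.6 and 14.3. For Wnt3, Wnt3a and Wnt10a on U74Av2 signal was above the floor in WT only, with bounds of -0.36, -0.02 and -0.46. For Wnt7a on U74Cv2 it was above the floor in Null only, with a bound of 0.43 that became 2.01 with no floor. The side of a bound follows from which array is above the floor, and its size depends on where the floor is set. With bounds counted, 1 ligand was higher and 5 lower in Null on U74Av2, and 6 were higher and 2 lower on U74Cv2. Of the ligands above the floor on both arrays, 1 was higher and 1 lower in Null on U74Av2, and 5 were higher and 2 lower on U74Cv2.

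Dim signal as a whole was lower in the Null array on U74Av2. The 20th percentile of intensity there was 29.9 in WT and 23 in Null. It was 52.1 and 52.8 for the U74Bv2 arrays, and 46.5 and 43.3 for those of U74Cv2. Among U74Av2 probe sets between the 30th and 50th level percentiles, read without a floor, the median log2 ratio was -0.12 over 2440 probe sets, 59.1% of them below 0. The 8 member probe sets in that band had a median of -0.53, with 7 below 0. The part of this chip-wide shift in the ligand values was not tested.

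**Figure D3:**
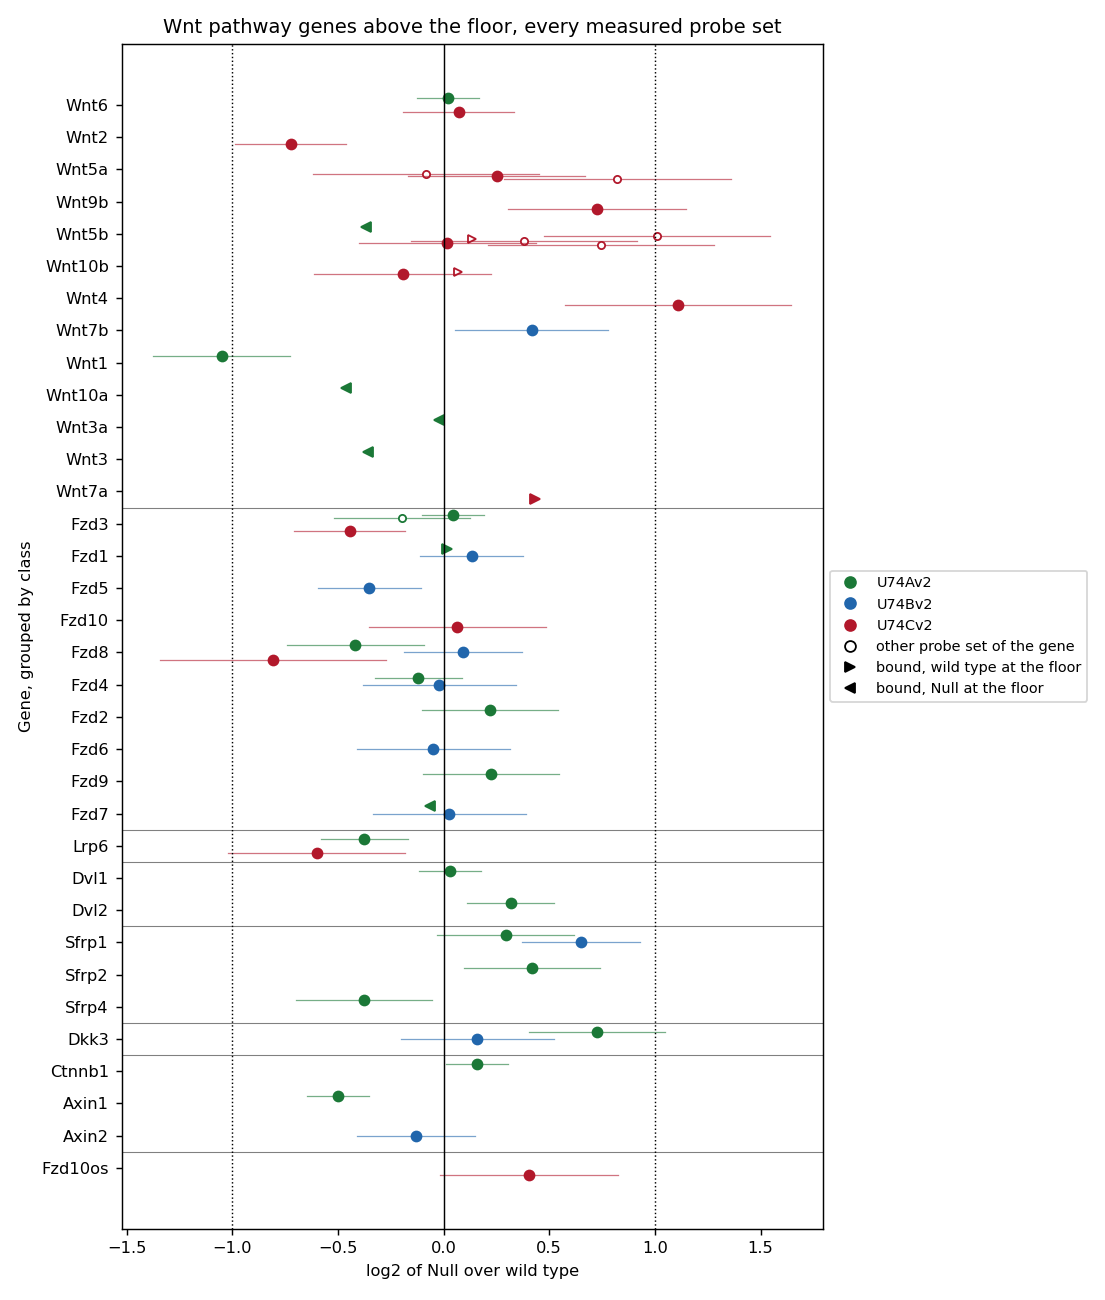
log2 of Null over WT (horizontal) for every measured probe set of the 34 genes above the floor, grouped by class and coloured by chip. Filled points are the brightest probe set of a gene on its chip, open points its other probe sets, triangles are bounds, and bars are the spread between probe sets of a gene in each direction; Wnt1, Wnt4 and a dimmer probe set of Wnt5b stand outside the dotted 2-fold lines, and the Frizzled receptors lie between -0.81 and 0.22.

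All 10 Frizzled receptor genes on the chips had a probe set above the floor on both arrays, and none was 2-fold different in any measured probe set. By the brightest probe set of each gene the ratios ran from -0.45 to 0.22 with a median of 0.05. Fzd1 read 1055.8 in WT and 1161.3 in Null on U74Bv2, a log2 ratio of 0.13, and lay at a bound of 0.01 on U74Av2. Fzd4, the receptor known also for binding norrin, read 403.9 and 373.9 on U74Av2 and 428.5 and 423.9 on U74Bv2, ratios of -0.12 and -0.02. Fzd4 differed by less than the spread on each chip, and so did Fzd1 on U74Bv2. The U74Av2 value of Fzd1 is a bound and cannot show this. With no floor that value was 0.23.

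Fzd5 read 1178.9 in WT and 927.7 in Null on U74Bv2, a log2 ratio of -0.35 against a spread of 0.24, the largest difference of a receptor on that chip. Fzd6 stood at -0.05 and Fzd7 at 0.03 there, and Fzd7 at a bound of -0.07 on U74Av2. Fzd2 stood at 0.22 and Fzd9 at 0.22 on U74Av2, both inside the spread of 0.32, and Fzd10 at 0.07 on U74Cv2. Fzd10os, read by a separate probe set on the same chip, stood at 0.40 against a spread of 0.42.

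Fzd3, a receptor of axon guidance, and Fzd8 depended on the chip. Fzd3 read 1030.6 in WT and 1068.3 in Null on U74Av2, a ratio of 0.04, and 3348.2 and 2499.7 on U74Cv2, a ratio of -0.45 against a spread of 0.26. A dimmer U74Av2 probe set of Fzd3 gave -0.20. Fzd8 read 178.5 and 134.5 on U74Av2, then 606 and 647.7 on U74Bv2, and 243.9 and 141.5 on U74Cv2. Its ratios were therefore -0.42, 0.09 and -0.81 on the 3 chips, and the probe set with the strongest signal for its chip gave the value nearest 0.

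Lrp6, a co-receptor of the canonical branch, was lower in Null on both chips that measured it. It read 590.8 in WT and 458.4 in Null on U74Av2, a log2 ratio of -0.37 against a spread of 0.21, and 545.5 and 365.6 on U74Cv2, a ratio of -0.60 against 0.42. Over the alternatives the ratios stayed between -0.39 and -0.37 and between -0.62 and -0.58. A second U74Av2 probe set, at 39.3 and 62, was under the floor. Lrp5 read 33.4 and 11.2, under the floor on both arrays.

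Of the genes for Dishevelled, which carries the signal from the receptors, Dvl1 was close to equal and Dvl2 higher in Null by more than the spread. Dvl1 read 1058.2 in WT and 1088.7 in Null, a log2 ratio of 0.03 against a spread of 0.15, and Dvl2 read 705.2 and 884.1, a ratio of 0.32 against a spread of 0.21. Dvl3 was under the floor at 26.7 and 45.8, and all 3 genes were on U74Av2 only. Ctnnb1, which encodes beta-catenin, read 6423.3 in WT and 7219.2 in Null. Its log2 ratio of 0.16 was about the size of the spread, 0.15.

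Of the scaffold proteins of the destruction complex Axin1 was lower in Null and Axin2 differed by less than the spread. Axin1 read 1440.2 in WT and 1025.1 in Null on U74Av2, a log2 ratio of -0.50 against a spread of 0.15, and stayed between -0.51 and -0.49 over the alternatives. It had no other probe set. Axin2, a widely used transcriptional target of beta-catenin, read 602.1 and 552.4 on U74Bv2, a ratio of -0.13 against a spread of 0.28, and was under the floor on U74Av2 at 45.3 and 54.2.

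Among the secreted antagonists Sfrp1 was higher in Null on both chips that carried it. It read 711.5 in WT and 1120.7 in Null on U74Bv2, a log2 ratio of 0.65 against a spread of 0.28, and 163.4 and 201.5 on U74Av2, a ratio of 0.29 against 0.32. Sfrp2 read 177.5 and 238.6 on U74Av2, a ratio of 0.42. Sfrp4 went the other way there, at 198.7 and 153.9 and a ratio of -0.38, and Sfrp5 was under the floor on U74Bv2. The class was thus split, with 2 of 3 measured genes higher in Null and 1 lower.

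Dkk3, a divergent member of its family that is not known as a classical Lrp inhibitor, read 166.2 in WT and 276.7 in Null on U74Av2, a log2 ratio of 0.73 against a spread of 0.32. On U74Bv2 it read 389.6 and 436.9, a ratio of 0.16 inside the spread of 0.36. Dkk1 and Dkk2 were under the floor on U74Av2, at 5.7 and 3.1 and at 28.3 and 31.6.

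Fibroblast and matrix markers were higher in the Null array, as were Sfrp1, Sfrp2 and Dkk3, while the antagonists Sfrp4 and Frzb were lower. Sfrp4 stood at -0.38 on U74Av2 and Frzb at a bound of -2.11 on U74Cv2. All 7 listed fibroblast and matrix genes were above the floor, all read on U74Av2, with 6 ratios above 0 and a median of 0.61. Their summed intensity was 15184 in WT and 21438 in scaled Null. The collagen genes Col1a2, Col1a1 and Col3a1 stood at 0.73, 0.61 and 0.54 and Postn, a matrix protein gene, at 1.29, while Pdgfra, a receptor of stromal cells, stood at -0.01. The part of these cells in the antagonist values was not tested. Sertoli markers had a median of -0.16 over 12 genes, 3 above 0 and 9 below 0. Past 2-fold were Rhox5 at -1.04 and Tsx at -1.02, both on U74Av2, where 0.821% of all genes were. The Sertoli list had a summed intensity of 48692 in WT and 43419 in Null, most of it from Clu and Aard. Clu read 16758 and 14551.7 and Aard 13733.2 and 12075, both on U74Av2. Macrophage markers summed to 18261 and 14159, most of it from Laptm5 at 13972.2 and 10423 on U74Cv2, while Csf1r read 1044.9 and 1055.9. The erythroid genes Hba-a1 and Alas2 summed to 4559 and 2771. Germ cell markers summed to 33833 and 33122, with a median of 0.05 over 11 genes. This sum pools chips and leans on 1 gene, Mov10l1, at 16376.6 and 17240.1 on U74Cv2. Past 2-fold among the germ cell markers were Bcl6b at 1.16, Sall4 at -1.32 and Pou5f1 at a bound of -1.19, all on U74Cv2. On that chip 9.59% of all genes were past 2-fold. On U74Av2 Bcl6b stood at 0.21, at a level percentile of 38.9.

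**Figure D4:**
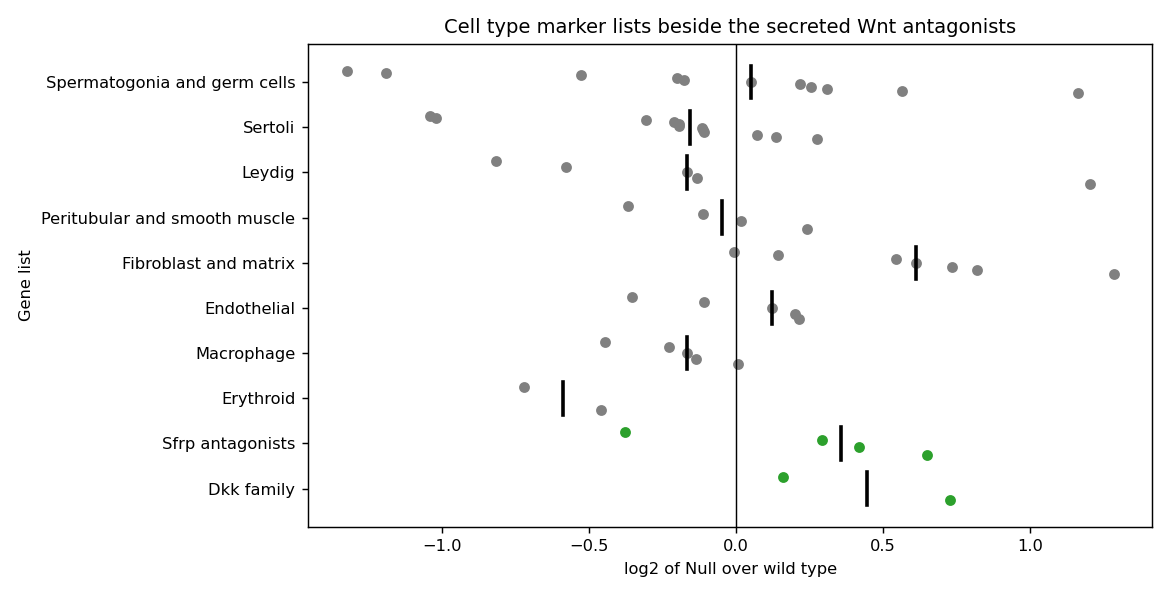
log2 of Null over WT (horizontal) of single genes in 8 cell type marker lists (grey, 1 probe set per gene over the chips) and of the measured Sfrp and Dkk genes (green, 1 point per gene and chip), with black bars at the medians. The fibroblast and matrix list lies to the right with a median of 0.61, and 5 of the 6 Sfrp and Dkk points lie above 0. Sfrp1 and Dkk3 give 2 of these points each, and Frzb, at a bound of -2.11, is not shown.

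Probe sets for 1 gene could be compared for few members. Of the 12 member genes with at least 2 measured probe sets, all probe sets went the same way for 6 (Wnt6, Fzd1, Fzd4, Lrp6, Sfrp1 and Dkk3) and opposite ways for 6 (Wnt5a, Wnt5b, Wnt10b, Fzd3, Fzd7 and Fzd8). Signs near 0 say little. Bounds included, the range between probe sets was within the widest of their spreads for 6 genes, Fzd1, Fzd7 and Wnt10b among them. It was wider for 6, Sfrp1 and Dkk3 among them. For Fzd1, Fzd7 and Wnt10b 1 of the values is a bound, so their range cannot show that the probe sets agree. With no floor Fzd7 on U74Av2 stood at -0.42. Of 19 genes carried by more than 1 chip, 10 were above the floor on each of their chips and 9 on only some. Neither Wnt1 nor Wnt4 had a second measured probe set.

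Other components of the pathway were read from a list of 89 genes, of which 79 were on the chips and 68 above the floor. On U74Av2 0 of 34 measured genes was at least 2-fold different. On U74Bv2 1 of 33 was, with Csnk1g1, a casein kinase, at least 2.96-fold higher in Null, at 70.4 in WT under the floor and 490.3 in Null. On U74Cv2 2 of 29 were, both lower with Null under the floor. Frzb, a secreted antagonist related to the Sfrp family, read 536.9 and 105.9, at least 4.33-fold lower, and Vegfa read 327.1 and 88.6, at least 2.64-fold lower. None of the 3 had another measured probe set. The shares of 3.03% on U74Bv2 and 6.90% on U74Cv2 compare with 1.6% and 9.59% over all genes, so the U74Cv2 count was no more than that chip's background.

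The 3 genes of this list with the highest level percentile on each chip all differed by less than 1.5-fold. All 3 were higher in Null on U74Av2 and all 3 lower on U74Bv2, while on U74Cv2 the signs were mixed. On U74Av2 Csnk1d, a casein kinase, stood at 0.07 and Csnk1a1, the kinase that primes beta-catenin for degradation, at 0.28 against a spread of 0.15. Gsk3a, a kinase that phosphorylates beta-catenin, read 4573.1 in WT and 5035.9 in Null on U74Av2, a log2 ratio of 0.13. Bcl9l, a beta-catenin cofactor, stood at -0.07 and Daam2, a formin that binds Dishevelled, at -0.16 on U74Bv2. Tnks2, a tankyrase that promotes Axin turnover, stood there at -0.45 against a spread of 0.24. Dimmer Tnks2 probe sets on the other chips went the other way, at 0.22 on U74Av2 and 0.79 on U74Cv2. On U74Cv2 the casein kinase gene Csnk1e stood at 0.36 against a spread of 0.26, and the corepressor genes Tle2 and Tle6 at -0.04 and 0.21. Of the genes often used as transcriptional readouts, 3 of 8 measured genes had a ratio above 0 on U74Av2, with a median of -0.13. The counts were 2 of 6 with a median of -0.07 on U74Bv2, and 1 of 5 with a median of -0.26 on U74Cv2. They include bounds for Fosl1 and Fst on U74Av2, Bmp4 on U74Bv2 and Vegfa on U74Cv2. Over all genes 2897 of 5971, 2735 of 5579 and 2188 of 4430 were above 0, with medians of -0.0093, -0.0080 and -0.0073. The readout counts are small and were not tested against these.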

How the data were processed

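The 6 arrays were 1-colour expression arrays, 1 WT and 1 Null on each of 3 chips, grouped by their titles. The authors deposited linear intensity values per probe set. Trimmed of 2% at each end, the mean was between 500.1 and 500.3 on every array, which shows a scaling of each array to a common target. Software and background correction: not given in the sources used here. Depth does not apply to arrays, and no detection calls were used.

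Per chip 66 control probe sets were left out. Null values were scaled by the median ratio of probe sets in the upper 50% of mean rank (log2 shifts of 0.01, 0.00 and 0.02), then a floor was set at the 40th percentile of both arrays, and log2 of Null over WT was taken. Gene names came from GEO's platform annotation; all 82 members matched RefSeq (GRCm38.p6) by Entrez identifier with the same symbol, and no coordinates are given because the arrays name no build. Each gene was represented on a chip by its probe set of highest mean rank. No test was possible, so genes past 2-fold were counted. Every member above the floor could be named, and of the other pathway genes those at least 2-fold different and the 3 brightest per chip. The members and lists were chosen with earlier results of these data known. The alternatives tried were unscaled values, quantile normalization, loess, a floor at the 20th or 60th percentile or none, 1.5-fold and 3-fold, probe sets without a suffix, and means over probe sets. Python 3.11.15, numpy 2.4.6, pandas 2.3.3, statsmodels 0.14.6 and matplotlib 3.10.9 were used. The calculation was tested on simulated data.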

Additional observations from a re-analysis of the deposited data

How the results depend on the processing

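No paired analysis was possible because each genotype had 1 array per chip. The count of member genes at least 2-fold different on U74Av2, 1 in the report, was 0 under quantile normalization, loess, a 60th percentile floor or 3-fold, 4 under a 20th percentile floor, 7 with no floor and 2 at 1.5-fold. On U74Bv2, 0 in the report, it was 2 under a 20th percentile floor, 2 with no floor and 1 at 1.5-fold. On U74Cv2, 1 in the report, it was 2 under a 20th percentile floor, 2 with no floor, 5 at 1.5-fold, and 0 under a 60th percentile floor, at 3-fold and with probe sets without a suffix, where Wnt4 has no probe set. For the other pathway genes, 3 in the report, it was 11 under a 20th percentile floor, 17 with no floor, 0 under a 60th percentile floor, 12 at 1.5-fold and 1 at 3-fold. Other scalings left those counts within 1.5 times on U74Bv2 and U74Cv2 and for the other pathway genes. The median over members on U74Cv2 was 0.57 over the 4 genes with probe sets without a suffix, and the other medians moved by less than the spread between probe sets. Of 286 values of single member genes under the alternatives 277 were classed as within that spread and 9 as beyond it. Neither Wnt1 nor Wnt4 changed sign. Fzd3 on U74Av2, classed as within, did change sign, from 0.04 to -0.20 with probe sets without a suffix. That move was past the spread of 0.15 for its brightest probe set and within the 0.32 for the dimmer one then used. With no floor Wnt3 on U74Av2 stood at -1.68 and Wnt7a on U74Cv2 at 2.01, both from probe sets dim on 1 array. Without a floor, 41.2% of all U74Av2 probe sets in the lowest 30% of level were at least 2-fold different, so signal close to background limits what can be read there.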

Other observations

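Of the casein kinase genes, whose products phosphorylate beta-catenin and Dishevelled, Csnk1e and Csnk1a1 were measured on 3 chips. Csnk1e on U74Av2 read 547.3 in WT and 807.2 in Null. It read 1387.9 and 1881.7 in the U74Bv2 arrays, and 5011 and 6544 in those of U74Cv2. The log2 ratios were 0.55, 0.43 and 0.36 and were higher in Null in 3 of 3 chips. Csnk1a1, the kinase that primes beta-catenin for degradation, read 2429.1 and 2970.7, 355.3 and 511.2, and 682.1 and 1325.7, with ratios of 0.28, 0.52 and 0.94, also higher in 3 of 3 chips. Csnk1d stood at 0.07 on U74Av2 and 0.32 on U74Cv2, Csnk2a1 at 0.03 on U74Av2, and Csnk1g1 was the only one of these 5 past 2-fold, at a bound of 1.56 on U74Bv2. The U74Cv2 probe sets of Csnk1e, Csnk1a1 and Csnk1d, and that of Csnk1d on U74Av2, have names with a suffix. The pattern was singled out after the values were seen, and the chips may have received the same RNA.

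Among genes on the list of transcriptional readouts, Ccnd1, the gene of cyclin D1, stood at -0.17 on U74Av2 and -0.26 on U74Cv2. Nkd1, a feedback inhibitor of the pathway, stood at -0.43 on U74Bv2 and -0.23 on U74Cv2. Lef1, a transcription factor that partners beta-catenin, was higher in Null on both chips that measured it, at 0.38 on U74Av2 and 0.22 on U74Bv2. These too were picked after their values were seen. All are differences under 1.5-fold between single arrays.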
